A study of Homo sapiens with 6 samples.

Results

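The genes described here code for the proteins of the cytosolic ribosome. They were taken as the 80 rows, of 26906 in the table, whose whole name is RPL or RPS with a number and at most one of the letters A, X or L (and a last number where there is one), or the name RPLP0, RPLP1, RPLP2 or RPSA, with pseudogene names that end in P and a number left out. Of these, 32 belong to the small subunit and 48 to the large subunit by name. RNA was measured in BE-(2)-C cells, an established human neuroblastoma line in which MYCN is amplified, and cells were taken 48 hours after they received siRNA. One group of 3 libraries received an siRNA against ELF4, a gene for an ETS transcription factor, and the other 3 libraries received a control siRNA. All 6 libraries were polyA-selected, and the 2 groups differ only in the siRNA as far as the labels say. In what follows, 3 values in a row are replicates 1, 2 and 3 of a group, "controls" are the control siRNA libraries, and ± is the SD of 3 libraries.

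The cytosolic ribosome has a small subunit, which reads the mRNA, and a large subunit, which joins amino acids. Each subunit is built in the nucleolus from ribosomal RNA and one copy of most of its proteins, so cells make these proteins in closely matched amounts. Most of their mRNAs begin with a C followed by a run of pyrimidines, the 5′ terminal oligopyrimidine (TOP) tract, through which mTOR and LARP1 control translation and stability. MYC proteins, MYCN among them, are known drivers of ribosome production in neuroblastoma.

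The start of the transcript is what most of these genes share beyond the rule. Of the 80 genes, 63 had an entry in the RefSeq table of starts (GRCh38.p14), by symbol. A C at the annotated start followed by at least 4 further letters, each C or T, was found in 41 of these 63 (65.1%), against 4.04% of all 27305 starts in the table and 5 of 70 (7.14%) of the mitochondrial ribosomal protein genes. Only the transcribed strand was searched. The ETS core CCGGAA, on either strand and anywhere in the 300 bases from 250 before to 50 after the start, was found in 35 of the 63 (55.6%), against 17.6% of all windows and 39 of 70 (55.7%) for mitochondrial ribosomal protein genes. The lines show 10 bases before and 20 after the annotated start, 5′ to 3′. Capitals mark the unbroken run of C or T that begins with a C at the start. The first 6 are from genes with large rises, the next 3 from genes that stayed near or below the control level, and the rest set parent genes beside their paralogs.
RPL12 (chr9:127451387-127451416, minus strand): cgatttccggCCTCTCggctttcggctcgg
RPL3 (chr22:39319604-39319633, minus strand): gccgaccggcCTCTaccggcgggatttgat
RPL13A (chr19:49487598-49487627, plus strand): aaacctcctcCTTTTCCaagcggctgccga
RPL28 (chr19:55385922-55385951, plus strand): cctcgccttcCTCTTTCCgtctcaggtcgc
RPS18 (chr6:33272065-33272094, plus strand): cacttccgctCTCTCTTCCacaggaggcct
RPL34 (chr4:108620566-108620595, plus strand): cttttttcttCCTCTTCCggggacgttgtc
RPS23 (chr5:82278335-82278364, minus strand): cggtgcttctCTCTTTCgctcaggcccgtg
RPS26 (chr12:56041908-56041937, plus strand): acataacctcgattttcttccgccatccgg
RPL15 (chr3:23916535-23916564, plus strand): tggggcctgctggaggagcttcacgcagtc
RPL22 (chr1:6199576-6199605, minus strand): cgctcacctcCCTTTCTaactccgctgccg
RPL22L1 (chr3:170870176-170870205, minus strand): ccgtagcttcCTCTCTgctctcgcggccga
RPL26 (chr17:8383174-8383203, minus strand): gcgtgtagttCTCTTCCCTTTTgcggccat
RPL26L1 (chr5:172958719-172958748, plus strand): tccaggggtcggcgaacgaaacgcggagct
RPS27 (chr1:153990752-153990781, plus strand): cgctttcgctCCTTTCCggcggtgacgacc
RPS27L (chr15:63157458-63157487, minus strand): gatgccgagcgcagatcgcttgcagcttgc

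Values are normalised read counts, and each library held 23148635 to 38097986 recovered reads. ELF4 itself stood at 42.4, 38.8 and 46.8 in the controls and at 5.51, 5.61 and 3.10 after ELF4 siRNA. All 9 adrenergic neuroblastoma markers were expressed in both groups and summed to 188950 to 201246 in the controls and 211849 to 232726 after ELF4 siRNA. CHGA (log2 fold change 0.55) and HAND2 (0.44) rose, ISL1 (-0.16), DBH (-0.17) and MYCN fell, and the other 4 missed the threshold. MYCN was high and slightly lower after ELF4 siRNA, at 78443 ± 2727 in the controls and 70994 ± 4027 after ELF4 siRNA (log2 fold change -0.14). Markers of other cell types were low in sum, at 46.8 to 53.7 and 31.9 to 48.3 for 2 blood markers, 46.05 to 53.7 and 29.2 to 40.8 for 3 epithelial markers, and 1.42 to 9.42 and 0 to 2.20 for the endothelial marker CDH5, in the controls and after ELF4 siRNA. The 5 Schwann and glial markers summed to 200 to 219 and 232 to 243, with SOX10 near 0. The 3 fibroblast markers DCN, LUM and PDGFRB were all expressed and summed to 3454 to 3570 and 3243 to 3307. Within that sum DCN (log2 fold change 0.83) and LUM (0.31) rose and PDGFRB (-1.19) fell. The part of these cell types in the results was not tested, and in bulk RNA fewer cells of a type cannot be told apart from less RNA per cell.

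After ELF4 siRNA most genes for cytosolic ribosomal proteins stood somewhat higher. Of the 79 genes tested, 57 passed upward, 5 passed downward and 17 missed the threshold (limma adjusted p under 0.05 over all genes tested). Over all 20339 genes tested, 45.1% changed, 20.7% upward and 24.4% downward. The median log2 ratio of the ELF4 siRNA to the control group was 0.24 for the ribosomal protein genes and -0.0042 for all genes tested. Most of the rises were alike in size, with 38 of 57 between 0.2 and 0.4 on the log2 scale, 14 below 0.2 and 4 above 0.5. RPL3L, at 5.65 to 8.50 in the controls and 5.51 to 14.6 after ELF4 siRNA, was below the limit for testing.

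Most of these genes are abundant, so the same shares were taken over the 5585 other genes with a mean of at least 1000, of which 62.6% changed. Of these other genes 24.4% rose and 38.3% fell, and their median log2 fold change was -0.05. Among the 68 ribosomal protein genes above that mean, 55 rose, 2 fell and 11 missed the threshold. The log2 fold changes of these 68 had an SD of 0.14, against 0.30 for the 5585 other genes. In 57 of the 79 genes all 3 ELF4 siRNA libraries were above all 3 control libraries, in 6 they were all below, and in 16 the groups overlapped. Over all genes tested, the groups were apart in 53.6%, with ELF4 siRNA higher in 25.4% and lower in 28.2%.

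**Figure D1:**
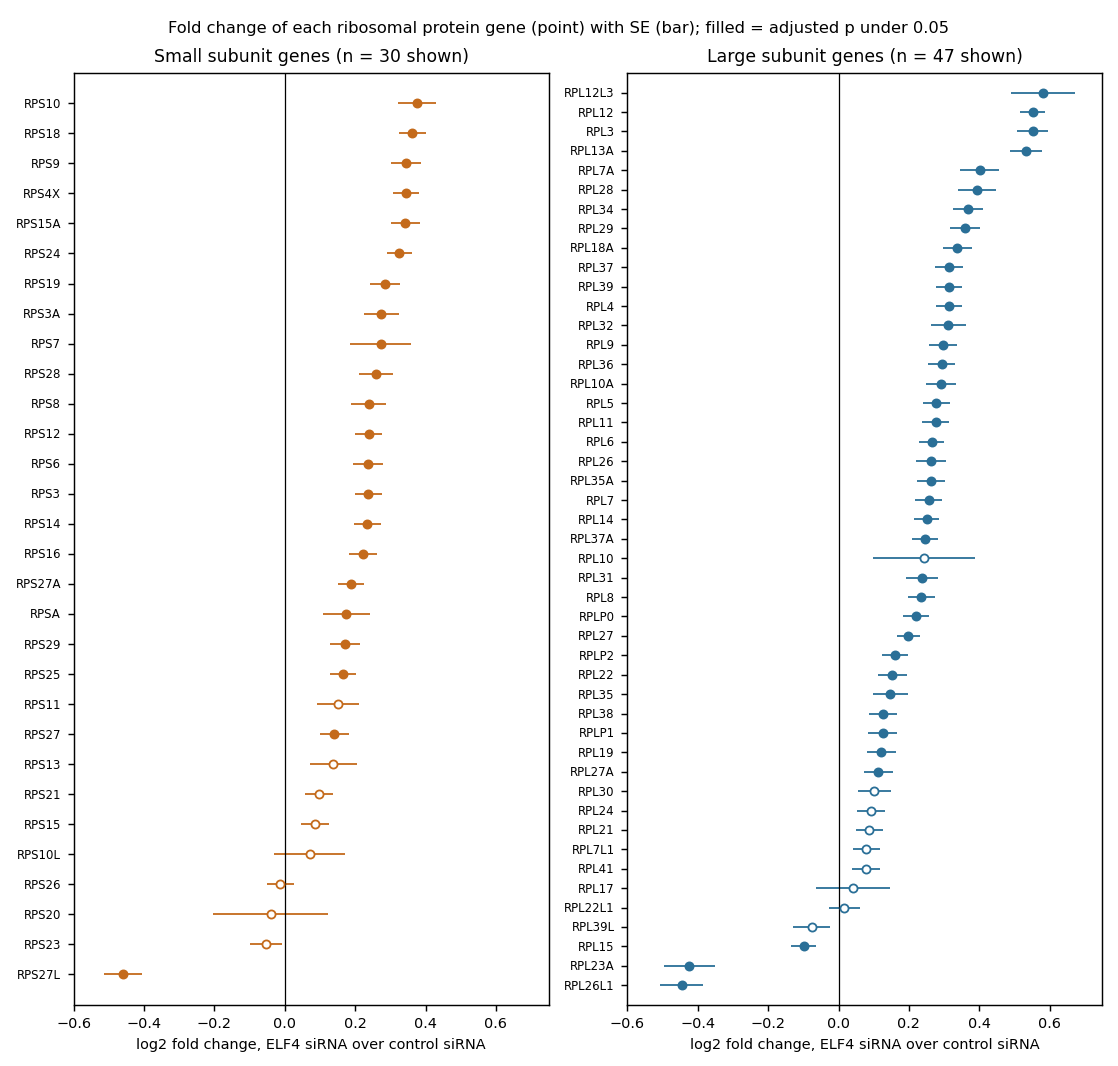
Log2 ratio of ELF4 siRNA to control siRNA (horizontal axis) for 30 of the 32 small subunit genes and all 47 large subunit genes tested; points are limma estimates from 3 libraries per group, bars the SE, and filled points passed an adjusted p of 0.05. The other 2 small subunit genes are in all counts and medians of the text but are not drawn. Most points lie between 0.1 and 0.4, with RPL12L3, RPL12, RPL3 and RPL13A above 0.5 and RPS27L, RPL26L1 and RPL23A below -0.4.

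Summed over the 80 rows, these genes took 3.58%, 3.78% and 3.52% of the reads in the controls and 4.29%, 4.38% and 4.26% after ELF4 siRNA. The groups did not overlap. The summed level was 17.9% higher after ELF4 siRNA. Control replicate 2 stood above the other controls for most of these genes, being the highest control in 60 of 80. Without it 63 genes rose and 4 fell. The share of reads in mitochondrial rows was 5.81% to 6.10% in control and 5.99% to 6.44% in ELF4 siRNA libraries.

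Both subunits took part. In the small subunit, 22 of 32 genes rose, 2 fell and 8 missed the threshold (median log2 fold change 0.21). In the large subunit, 35 of 47 tested genes rose, 3 fell and 9 missed the threshold (median 0.25). That is 68.8% upward for the small and 74.5% for the large subunit, against 20.7% over all genes tested. The summed level of small subunit genes was 16.5% higher and that of large subunit genes 18.8% higher. The ratio of the small to the large sum was 0.666, 0.670 and 0.662 in the controls and 0.655, 0.654 and 0.649 after ELF4 siRNA. The ratio was thus lower in every ELF4 siRNA library than in any control library. It was not tested, since it is a score over the chosen genes. The difference in medians was not seen in tested genes with most of their reads in their own row, RefSeq pseudogenes left out. There 19 of 25 small subunit genes rose (median 0.235) and 28 of 37 large subunit genes (median 0.237). This subset was chosen after seeing the data. The difference remained when rows that join a gene's name with another were added (medians 0.2025 for the small and 0.2501 for the large subunit). With pseudogene rows added instead, the medians were 0.2046 and 0.2343.

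**Figure D2:**
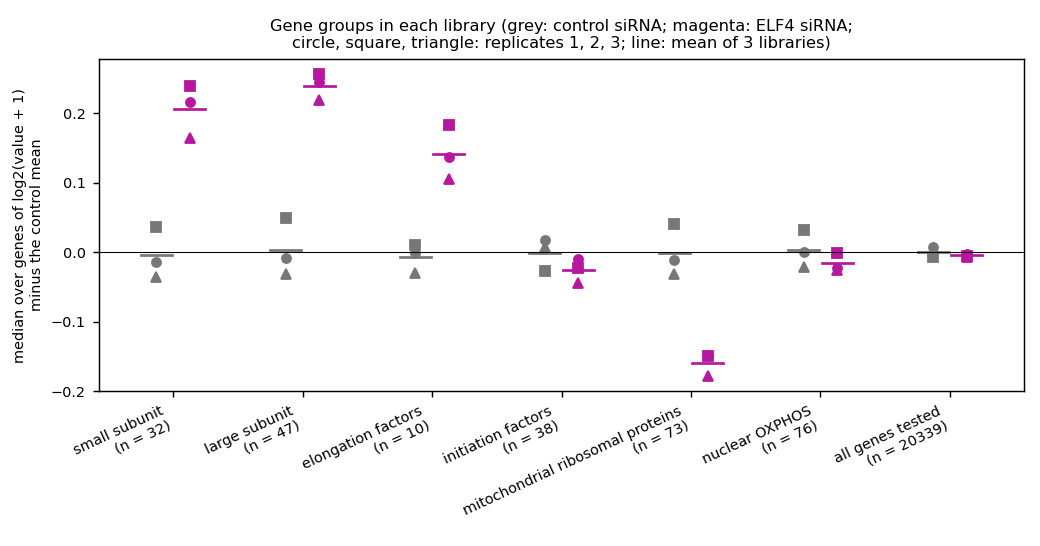
Median over the genes of a group of log2(normalised read count + 1) minus the gene's control mean (vertical axis), for each library and for groups on the horizontal axis; grey is control siRNA, magenta ELF4 siRNA, shapes are replicates and lines are means of 3 libraries. Both subunits lie above every control in all 3 ELF4 siRNA libraries (0.16 to 0.26), mitochondrial ribosomal proteins lie below (-0.15 to -0.18), and all genes tested stay at 0.

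In the small subunit the largest rises were in RPS10, RPS18, RPS9, RPS4X, RPS15A and RPS24. RPS18, a protein of the small subunit head near the contact with the large subunit, stood at 27434, 29154 and 27194 in the controls and at 35275, 36076 and 36314 after ELF4 siRNA. All ELF4 siRNA values were above all control values, and the log2 fold change was 0.36 (SE 0.04, limma adjusted p = 3.76e-06). RPS4X, an X-linked gene for a protein of the subunit body, went from 25527 ± 821 to 32398 ± 605 (SD, n = 3 per group; log2 fold change 0.34). RPS24, whose mutation is one cause of Diamond-Blackfan anaemia, went from 23855 ± 415 to 29887 ± 466 (log2 fold change 0.33). RPS9 and RPS15A had log2 fold changes of 0.35 and 0.34. RPS10 had 0.38, but its own row held only 11.3% of the reads that carry its name.

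Of 14 genes for head proteins, 11 rose and 1 fell (median log2 fold change 0.21). Of 16 tested genes for proteins of the body and platform, 11 rose and 5 missed the threshold (median 0.24). RPSA, a platform protein that doubles as a laminin receptor, stood at 3538, 4174 and 3302 in the controls and 4074, 4176 and 4125 after ELF4 siRNA. Its groups overlapped at control replicate 2, and its call (log2 fold change 0.17, limma adjusted p = 0.0434) was lost when any one of control replicates 1 or 3 or of the ELF4 siRNA replicates was left out (adjusted p 0.0843 to 0.209). Its own row held 39.3% of the reads with its name. With the rows that join its name with another added, the log2 fold change was 0.17 (limma adjusted p = 0.0145).

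Some small subunit genes stayed near the control level. RPS23, which codes for a protein of the decoding centre, had overlapping groups at 9136 ± 397 and 8808 ± 409. RPS26, a platform protein that contacts the mRNA upstream of the start codon, stood at 4840 ± 89.6 and 4798 ± 110, and neither passed (adjusted p = 0.369 for RPS23 and 0.819 for RPS26).

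In the large subunit RPL12, RPL3 and RPL13A rose most among genes that code for a protein. RPL3 lies near the peptidyl transferase centre. It stood at 25901, 28016 and 25182 in the controls and at 38355, 40062 and 37474 after ELF4 siRNA, a rise of 46.5% (log2 fold change 0.55, SE 0.04, limma adjusted p = 3.09e-07). RPL12, which sits at the base of the stalk, stood at 14285, 14117 and 14037 in the controls and at 20319, 21360 and 20555 after ELF4 siRNA. Its log2 fold change was 0.55 (SE 0.04, limma adjusted p = 4.22e-08). RPL13A, known for a second role in silencing inflammatory mRNAs, stood at 7575, 8436 and 7614 in the controls and at 11497, 11519 and 11135 after ELF4 siRNA, a log2 fold change of 0.53. The RPL13A row held only 25.3% of the reads with that name, and with its joined row added the log2 fold change was 0.44. In each of the 3 genes the lowest ELF4 siRNA value was far above the highest control value.

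RPL7A and RPL28 followed, with log2 fold changes of 0.40 and 0.39. RPL7A went from 4193 ± 379 to 5523 ± 154. Its own row held only 21.2% of the reads with its name, and with its joined rows added the log2 fold change was 0.37. RPL28 went from 9996 ± 176 to 13172 ± 1199, with ELF4 siRNA replicate 3 (11792) below replicates 1 and 2 (13959 and 13766). The largest value of all was that of RPL12L3 (0.58), from 134 ± 4.23 to 201 ± 17.4. RefSeq lists this name as a pseudogene of RPL12, so its reads may belong to RPL12. The other such name, RPS10L, did not pass (0.07, limma adjusted p = 0.602).

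Of 11 genes for proteins around the peptidyl transferase centre and the exit tunnel, 8 rose, 1 fell and 2 did not pass. That is 72.7% upward, against 20.7% over all genes tested. RPL4, whose long loop lines the tunnel, went from 20565 ± 729 to 25541 ± 203 (log2 fold change 0.31), and RPL39, a small tunnel protein, from 9588 ± 163 to 11918 ± 288 (0.31). The member that fell was RPL23A, a protein at the tunnel exit, from 363 ± 20.8 to 270 ± 13.5 (-0.42). Its own row held only 17.6% of the reads with its name. With its joined rows added, the log2 fold change was -0.13 and no longer passed (limma adjusted p = 0.0837).

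All 4 genes of the stalk, which recruits the GTPases of translation, rose. RPLP0, which codes for the stalk base, stood at 47581, 50134 and 47295 in the controls and at 57163, 56581 and 55181 after ELF4 siRNA, a log2 fold change of 0.22. Its partners RPLP1 and RPLP2 had smaller log2 fold changes of 0.13 and 0.16, against 0.55 for RPL12. The RPLP1 call was lost without ELF4 siRNA replicate 2 (limma adjusted p = 0.107) or control replicate 1 (0.0525). RPL5 and RPL11, which with 5S ribosomal RNA form the particle that can bind MDM2, rose almost equally. RPL5 went from 12711 ± 383 to 15412 ± 352 (0.28) and RPL11 from 13754 ± 572 to 16646 ± 248 (0.28).

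RPL15, an abundant large subunit gene, was slightly lower after ELF4 siRNA. It stood at 12576, 12813 and 12609 in the controls and at 12010, 12023 and 11439 after ELF4 siRNA. All ELF4 siRNA values were below all control values, but the drop was small (log2 fold change -0.10, SE 0.04, limma adjusted p = 0.0393). The call was lost without any one library except ELF4 siRNA replicate 2 (adjusted p 0.0584 to 0.111), and with edgeR (0.0593) and DESeq2 (0.0666). RPL41, the shortest protein of the set, had 13265 ± 349 and 14000 ± 475 and did not pass (0.08, adjusted p = 0.124).

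The reads of many of these genes are spread over several rows. In the table, 27 of the 80 genes also appear in rows that join their name with another, most often a small nucleolar RNA encoded in one of their introns. In 15 genes the row that carries the name alone held less than 50% of the reads, down to 0.452% for RPS20, 0.682% for RPL10, 1.71% for RPS7 and 1.97% for RPL17. RPL13, RPL18, RPL23, RPL36A and RPS2 are among the 6 names that have joined rows only.

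Of 42 tested joined rows, 31 rose (73.8%, against 20.7% over all genes tested) and 11 missed the threshold (median log2 fold change 0.23). The joined row of RPL13 went from 26189 ± 2160 to 33610 ± 760 (log2 fold change 0.36), that of RPL18 from 15484 ± 243 to 19186 ± 787 (0.31) and that of RPL23 from 21719 ± 376 to 25675 ± 418 (0.24). The larger row of RPS2, joined with 2 small nucleolar RNAs, went from 40789 ± 1107 to 46829 ± 1011 (0.20). Across the 25 genes with a tested own and joined row, the log2 fold changes of the own and the largest joined row had a Pearson r of 0.47, and across the 13 with a mean of at least 1000 in both rows it was 0.89, as a description, since both rows come from the same libraries and the same gene. With joined rows added to each gene, 61 rose and 4 fell. RPL10, whose own row did not pass at a mean normalised read count of 176, then had a log2 fold change of 0.24 (limma adjusted p = 0.000165), and RPL17 had 0.31 (1.13e-05). RPS20 with its joined row stayed at 0.07 and did not pass (adjusted p = 0.111).

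**Figure D3:**
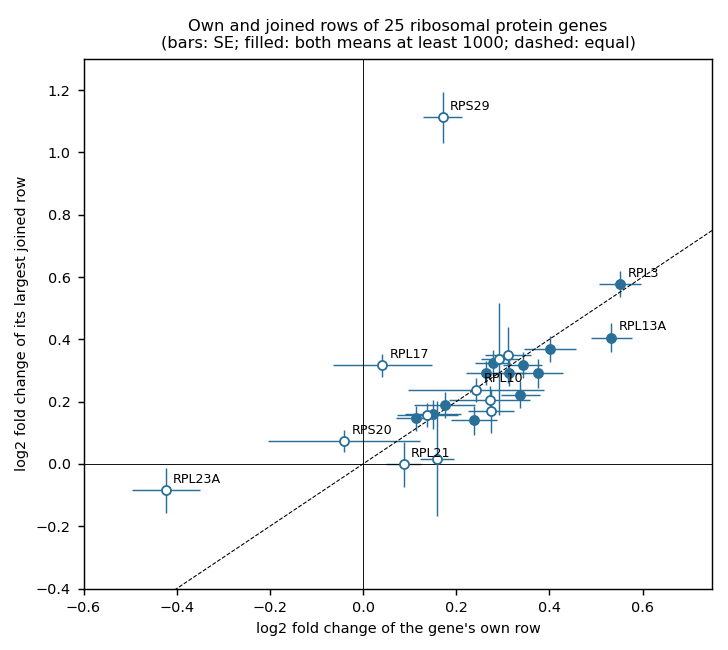
Log2 fold change of the row with the gene's name alone (horizontal axis) and of its largest joined row (vertical axis) for 25 ribosomal protein genes; bars are SE from 3 libraries per group, filled points have means of at least 1000 in both rows, and the dashed line marks equal values. Filled points lie near the line from 0.1 to 0.6, and RPS29 stands off it at 1.11, with a row joined to the pseudogene RPL32P29.

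Processed pseudogenes are the other place where reads can go. The table holds 325 rows of pseudogenes of these genes or of other ribosomal protein names, RPL13 and RPS2 among them, and 246 were tested. Of these 112 rose (45.5%), 2 fell (0.81%) and 132 missed the threshold (median log2 fold change 0.24), against 20.7% upward and 24.4% downward over all genes tested. RPLP0P6 went from 14545 ± 289 to 17268 ± 289 (0.25). Not all rows are distinct, since RPL9P8 and RPL9P9 had the same read count in each library and both were counted as rises. The 2 that fell were RPL12P38 (-0.28) and RPL26P30 (-0.48). The own rows of RPL13A and RPS23 held 43.9% and 57.3% of the reads when set beside their pseudogene rows, so single levels are uncertain. Joined rows were left out of these shares, and for RPL13A the own row held only 25.3% of the reads with its name. With pseudogene rows added to the parents, 60 genes rose and 3 fell.

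Levels can be compared between genes only per length. Per 1000 coding bases of the GENCODE 29 principal transcript, with own and joined rows summed, the control level ranged from 1892 ± 106 for RPL26L1 to 176871 ± 4659 for RPL41, leaving aside RPL3L at 5.74 ± 1.17. RPL37A (95252 ± 992) and RPLP1 (75764 ± 1361) came next after RPL41. The coding part of RPL41 is only 75 bases, so untranslated sequence weighs heavily in its value. Among genes for standard ribosomal proteins RPL23A was lowest (4038 ± 147), followed by RPSA (10507 ± 932), RPS13 (10577 ± 160) and RPS3A (11221 ± 868). The last 3 lay within their spread of one another. Pseudogene rows were left out of these levels. Set beside them, the own rows of RPL23A, RPSA and RPS3A held 34.9%, 31.5% and 34.6% of the reads, and that of RPS13 100%. Joined rows, which the levels include, were left out of these shares. Of the reads with the gene's name, the own row held 17.6% for RPL23A, 39.3% for RPSA, 93.1% for RPS3A and 10.5% for RPS13. Across the 77 tested genes with a coding length, the fold change had a Pearson r of 0.26 with log2 coding length, and across 79 a Pearson r of 0.37 with log2 level, both given as descriptions of genes that share libraries.

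Paralogs are related genes whose proteins can take the parent's place in the ribosome or act elsewhere. Of the 5 tested paralogs among the genes of the rule, 2 fell (40%, against 24.4% over all genes tested) and 3 missed the threshold. Of those 3, RPL7L1 rose with upper quartile or library total scaling. RPL36AL, a related gene whose name falls outside the rule, was not counted here and rose (log2 fold change 0.13). RPS27L, a target gene of p53, stood at 743, 717 and 711 in the controls and at 534, 523 and 520 after ELF4 siRNA, a drop of 27.4% (log2 fold change -0.46, SE 0.05, limma adjusted p = 9.86e-06). Its parent RPS27 rose from 10572 ± 95.0 to 11669 ± 588 (0.14). RPL26L1 stood at 773, 864 and 833 in the controls and at 571, 617 and 624 after ELF4 siRNA (-0.45, adjusted p = 3.94e-05), while RPL26 rose (0.26). RPL39L, known from the testis, had 668 ± 8.21 and 633 ± 6.33 with groups that did not overlap, and its log2 fold change of -0.08 did not pass (adjusted p = 0.258). RPL22L1 (0.02) and RPL7L1 (0.08) did not pass either, while RPL22 (0.15) and RPL7 (0.26) rose.

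**Figure D4:**
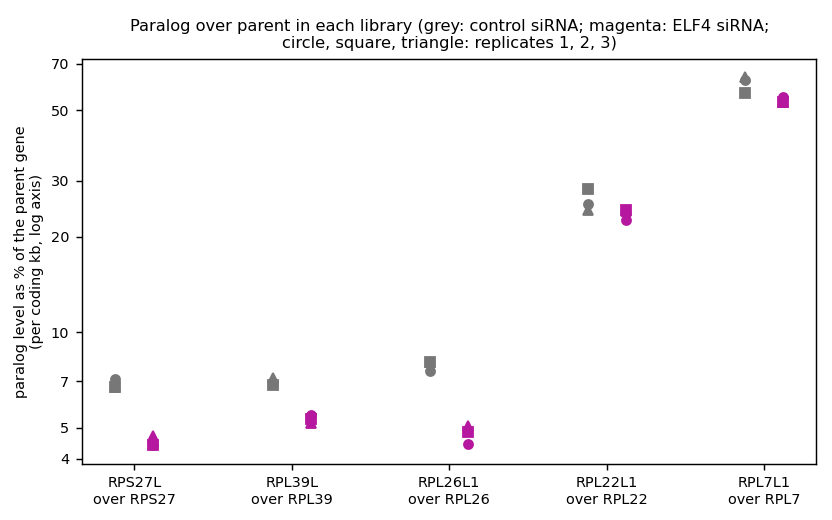
Level of 5 paralogs per coding kilobase as a percentage of the parent gene (vertical log axis) in each library; grey is control siRNA, magenta ELF4 siRNA, and shapes are replicates. In all 5 pairs the ELF4 siRNA libraries lie below the controls, with the widest gaps for RPS27L and RPL26L1.

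As a share of the parent level per coding base, RPS27L was 7.10%, 6.73% and 6.71% in the controls and 4.40%, 4.41% and 4.72% after ELF4 siRNA. RPL26L1 went from 7.91% ± 0.30 to 4.78% ± 0.32 of RPL26, RPL39L from 6.96% ± 0.19 to 5.31% ± 0.15 of RPL39, and RPL7L1 from 60.8% ± 3.56 to 53.7% ± 1.11 of RPL7. RPL22L1 went from 26.0% ± 2.00 to 23.6% ± 0.96 of RPL22, with control replicate 3 (24.3%) just above ELF4 siRNA replicate 2 (24.2%). Each of these 5 ratios had groups apart and an exact two-sided permutation p of 0.1, the smallest that 3 libraries against 3 allow (0.12 adjusted over 6 ratios). RPL3L, the paralog of striated muscle, was at 0.018% of RPL3 in control and 0.015% in ELF4 siRNA libraries. The starts shown above differ in these pairs, since RPL26 and RPS27 begin with a pyrimidine run and RPL26L1 and RPS27L do not, while RPL22 and RPL22L1 both do.

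Among the 41 genes with a pyrimidine run at the annotated start, 34 rose and 7 missed the threshold (median log2 fold change 0.24). Among the 22 without it, 14 rose, 3 fell and 5 missed the threshold (median 0.22). RPL15, RPL26L1 and RPS27L, the 3 that fell, are shown above. Not all 5 genes that fell had an entry among the starts, and RPL23A is in neither group for that reason. RPS23, which did not rise, has a run of 7 letters, and RPL3, which rose most with RPL12, has 4. Among the 35 with CCGGAA, 28 rose and 1 fell (median 0.24), and among the 28 without it 20 rose and 2 fell (median 0.23). An annotated start can lie some bases from the start used in these cells.

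Mitochondrial ribosomal protein genes, which serve the separate ribosome of mitochondria, mostly had lower values after ELF4 siRNA. There were 40 falls (54.8%), 4 rises and 29 that missed the threshold among 73 tested (median log2 fold change -0.16), against 24.4% that fell over all genes. Among the 5585 genes with a mean of at least 1000, cytosolic ribosomal rows left out, 38.3% fell (median -0.05). With upper quartile scaling the mitochondrial ribosomal protein genes had 31 falls and 8 rises (median -0.10). MRPL9 stood at 1439, 1477 and 1428 in the controls and at 941, 1024 and 959 after ELF4 siRNA (-0.57, limma adjusted p = 6.19e-07). MRPS27 went from 3864 ± 127 to 2828 ± 58.6 (-0.45). The 4 that rose were MRPL10 (0.29), MRPS25 (0.24), MRPS33 (0.23) and MRPS31 (0.17). Nuclear genes for subunits of oxidative phosphorylation were spread on both sides. Of 76 tested, 15 rose (19.7%, against 20.7% over all genes) and 14 fell (18.4%), with a median of -0.02. With upper quartile scaling 24 rose and 9 fell, and the median became 0.04. NDUFB6 (-0.74) and NDUFA8 (-0.67) passed with the smallest adjusted p.

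**Figure D5:**
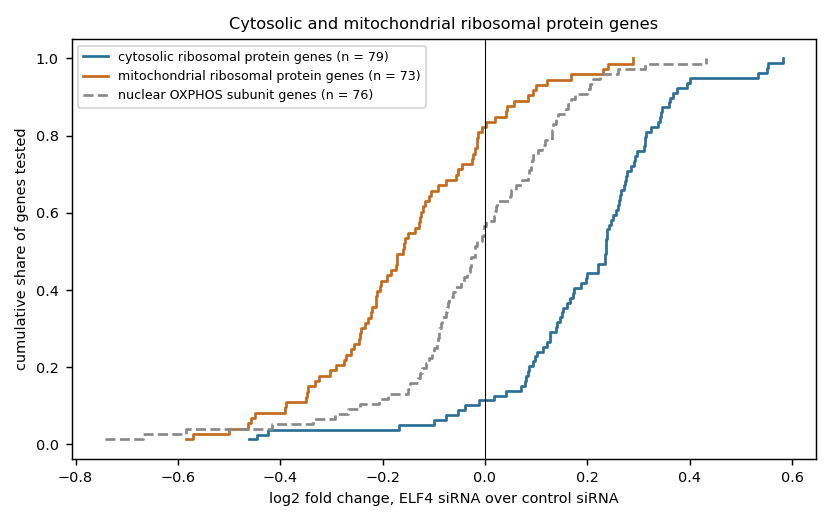
Cumulative share of genes tested (vertical axis) by log2 ratio of ELF4 siRNA to control siRNA (horizontal axis) for cytosolic ribosomal protein genes (n = 79), mitochondrial ribosomal protein genes (n = 73) and nuclear genes of oxidative phosphorylation (n = 76). The medians are 0.24, -0.16 and -0.02, and the cytosolic curve lies to the right of the other curves over most of the range.

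Genes with names outside the rule also code for ribosomal proteins or bind the ribosome. GNB2L1, also called RACK1, a scaffold on the small subunit head, went from 27105 ± 638 to 32433 ± 1329 (log2 fold change 0.26), and RPL36AL went from 2717 ± 43.5 to 2968 ± 46.3 (0.13). Of 16 tested TOP genes that code for other proteins, 10 rose, 1 fell and 5 missed the threshold (median 0.17). That is 62.5% upward, against 20.7% over all genes tested. EEF2, the factor that moves the ribosome along the mRNA, stood at 87424, 86337 and 83444 in the controls and at 147932, 154413 and 141527 after ELF4 siRNA, a log2 fold change of 0.79 (limma adjusted p = 7.49e-09), above that of any ribosomal protein gene. EIF4B, a helper of the eIF4A helicase, went from 14910 ± 490 to 24035 ± 453 (0.69). The 1 that fell was TPT1 (-0.23), which codes for the tumour protein TCTP and was named after its value was seen.

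Of 10 tested noncoding hosts of small nucleolar RNAs with TOP starts, 5 rose and 5 missed the threshold (median log2 fold change 0.21). Over all genes tested 20.7% rose and 24.4% fell. EPB41L4A-AS1 had 0.94 and GAS5 0.61, and SNHG8 (0.51), ZFAS1 (0.39) and SNHG16 (0.20) rose less. The list of elongation factors and related genes was mixed, and it shares at least EEF2 with the TOP genes for other proteins counted above. Of 10 tested, 5 rose (EEF2, EEF1A2, EEF1A1, EEF2K and EEF1B2) and 3 fell (EIF5A, EIF5A2 and EEF1E1), with a median of 0.14. EEF2K, a kinase of EEF2, and EEF1E1, a partner of tRNA synthetases, are not elongation factors themselves. EEF1A2, the neuronal and muscle form of the factor that delivers tRNA, went from 21286 ± 991 to 31584 ± 1446 (0.57). Initiation factors had no common direction. Of 38 tested, 13 rose (34.2%) and 12 fell (31.6%), with a median of -0.04, which became 0.02 with upper quartile scaling. EIF3L fell from 12308 ± 283 to 6551 ± 304 (-0.91), whereas EIF4B, counted above, rose.

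Among 24 tested chaperones and maturation factors, which help build the ribosome, there were 10 falls (41.7%), 5 rises (20.8%) and 9 that missed the threshold (median log2 fold change -0.09). Over all genes tested 24.4% fell and 20.7% rose. Over genes with a mean of at least 1000, cytosolic ribosomal rows left out, 38.3% fell and 24.4% rose. With upper quartile scaling the balance of the 24 genes turned, to 6 falls and 7 rises (median -0.03). TSR1, a factor of small subunit maturation, fell from 1962 ± 11.8 to 1179 ± 75.5 (-0.74). GLTSCR2, also called NOP53, a factor of large subunit maturation, rose from 4145 ± 167 to 6216 ± 264 (0.58), and LSG1 (0.31), NOB1 (0.28), NMD3 (0.28) and PDCD2 (0.18) were the other rises. Of 19 tested genes of mTOR signalling and TOP mRNA control, 3 rose (15.8%: EIF4EBP3, PDCD4 and MTOR), 8 fell (42.1%) and 8 missed the threshold. Their median was -0.06 and became 0.01 with upper quartile scaling, which gave 5 rises and 5 falls. EIF4EBP2, an inhibitor of the cap-binding factor eIF4E, fell from 5605 ± 162 to 2917 ± 73.7 (-0.94). PDCD4, an inhibitor of the eIF4A helicase, rose from 1158 ± 70.4 to 2175 ± 69.1 (0.91).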

How the data were processed

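The members and gene lists were chosen with earlier results of these data known. The authors deposited 1 table of normalised read counts, a signal in which each library's reads are divided by a size factor. The submitters' processing notes name the hg19 build, DESeq2, featureCounts and TopHat. Their versions and roles, the annotation and the strand setting were not given in the sources used here, so genes cannot be told apart from antisense partners. Every value (100%) was a whole multiple, within 0.001, of what 1 read is worth in its library, so whole reads were recovered; on these, edgeR called 9261 genes. Genes reaching 10 in 3 or more libraries were tested with limma (intensity trend) on log2(value + 1), over all 6 libraries without covariates, with Benjamini-Hochberg adjustment over 20339 genes and a threshold of 0.05. On this scale the change of a low gene is understated. The p-values rest on the spread between these libraries alone, which may be technical: the design text says that cells were treated in triplicate, and nothing says more about separate cultures. Libraries of one group differed by more than sampling noise (chi-square per degree of freedom 1.91 to 5.20). Named genes are ELF4, in each subunit the 6 highest and 4 lowest fold changes at a mean of at least 100, the stalk, 5S particle, RPSA, paralogs and parents, ribosomal proteins outside the rule, and from each other list the 2 smallest adjusted p. RPL4, RPL34, RPL41, the genes in joined rows, those named for their level and those that complete a short count were named after their values were seen. A few genes are not reported by name here. Some listed names (FAU and EEF1G among them) have no row of their own. Alternatives were other pseudocounts, filters, scalings and tests, a replicate block, joined or pseudogene rows added, and leaving out each library. The fit was tested on simulated data. Start sequences are from RefSeq (GRCh38.p14), matched by symbol. The tools were matplotlib 3.10.9, pandas 2.3.3, scipy 1.17.1, numpy 2.4.6 and Python 3.11.15 for tables and figures, and DESeq2 1.42.0, edgeR 4.0.16 and limma 3.58.1 in R 4.3.3 for tests.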

Additional observations from a re-analysis of the deposited data

How the results depend on the processing

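The median log2 fold change of the ribosomal protein genes moved by more than the spread between libraries only with upper quartile scaling, to 0.30 (0.27 for the small and 0.31 for the large subunit); that scaling raised the median of all genes to 0.06 and changed the split of all called genes from 4217 higher and 4956 lower to 5479 higher and 3938 lower. The cause was not tested. Apart from these 3 values, all 136 other summary values kept within the spread or within 1.5 times the count. Leaving out 1 library gave 49 to 63 ribosomal protein genes that rose. Counting only the 62 tested genes whose own row holds at least 50% of the reads and that are no RefSeq pseudogene, chosen after seeing the data, 47 rose and 4 fell. Of 987 values of the 52 named genes, 947 kept their call, 35 no longer passed, 5 newly passed and 0 reversed. With the replicate block 62 ribosomal protein genes rose and 5 fell, and 9910 of all genes changed against 9173. The correlations of same-numbered deviations were 0.029, 0.0748 and 0.041, so the numbers are not shown to pair the libraries, although each library correlated best with its own number. RPL3L, with 5 to 13 reads per library, was too shallow to test.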
